A study of Mus musculus with 18 samples.

Results

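The blood-spinal cord barrier and its endothelial cells were followed through 10 genes, *Cldn5*, *Ocln*, *Cdh5*, *Pecam1*, *Slc2a1*, *Mfsd2a*, *Abcb1a*, *Flt1*, *Kdr* and *Tek*, in the spinal dorsal horn (DHSC) on the side of a formalin-injected paw, in mice. They are the rows, out of 55573 genes in the count table, whose Ensembl ID carries one of these symbols. The rule uses no measured value, but the symbols were listed with earlier results of these data known. All 10 passed the filter on low counts in every comparison. RNA was measured in 18 samples of adult C57BL/6J mice, aged 8 to 12 weeks, 2 h after injection of 2% formalin into a hind paw, at a volume scaled to body weight. The samples came from 6 F1/proestrus females, with a short interphase between the phases of nocifensive behavior, from 6 F2/metestrus females, with a long interphase, and from 6 males. The female groups therefore differed in behavior and in the stage of the estrus cycle at the same time. Every animal had received formalin and no uninjected or vehicle group was analysed here, so the values describe the injected state only.

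Endothelial cells of the spinal cord are sealed by tight and adherens junctions, let few vesicles cross, and carry nutrients in and xenobiotics out through dedicated transporters. This state is kept up by signals from pericytes and astrocytes, among them Wnt ligands, and by the VEGF and angiopoietin receptors, which also govern vessel growth and leakiness. Among the 10 genes, *Cldn5* and *Ocln* encode tight junction proteins, *Cdh5* encodes VE-cadherin of the adherens junction, and *Pecam1* encodes the adhesion molecule CD31. *Slc2a1* encodes the glucose transporter GLUT1, which glia also make. *Mfsd2a* encodes a carrier of lysophospholipids that restrains transcytosis, and *Abcb1a* encodes a P-glycoprotein that pumps drugs out. *Flt1* and *Kdr* encode the VEGF receptors VEGFR1 and VEGFR2, and *Tek* encodes the angiopoietin receptor TIE2.

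Total counts per sample ranged from 73590509 to 125724156, and the least counted of the 10 genes, *Cdh5*, still had at least 342 counts in every sample. Levels are given as CPM, which are counts scaled to a common library total after TMM normalization. Library numbers given in the count table form a lower and a higher run, which hold replicates 1 to 3 and 4 to 6 of each group, and are called library series here. The labels do not say what the series are. The tissue label was checked against markers, and neuronal transcripts were abundant in every sample (*Snap25*, 3170 to 4117 CPM). Genes of sensory ganglion neurons summed to 640 CPM in F1/proestrus replicate 5 and to between 11.01 and 64.1 CPM in the others. The listed vascular smooth muscle genes summed to 322.5 CPM in that sample against 107 to 188 CPM elsewhere. Most of this sum came from 1 gene, *Sncg*, at 237.7 CPM against a median of 56.5 CPM over the 18 samples. In such bulk tissue, fewer endothelial cells and less RNA per endothelial cell cannot be told apart. The methods call the samples biological replicates, but the labels do not tie each to a separate animal, so the p-values measure the spread between these samples.

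The start regions of 4 genes, picked by the results below, are shown, and no result rests on these sequences. These are the 3 receptor genes, all called lower in replicates 4 to 6, and *Cldn5*, whose level ran against that of *Tek*. RefSeq promoters (GRCm38.p6, 250 bases before to 50 bases after the start) were found for 8 of the 10 genes, and none was used for *Cdh5* or *Pecam1*. Capitals mark GGAA or its reverse complement TTCC, the core letters bound by ETS factors such as ERG, which are known for endothelial genes.
*Flt1* (chr5:147725962-147726261, minus strand): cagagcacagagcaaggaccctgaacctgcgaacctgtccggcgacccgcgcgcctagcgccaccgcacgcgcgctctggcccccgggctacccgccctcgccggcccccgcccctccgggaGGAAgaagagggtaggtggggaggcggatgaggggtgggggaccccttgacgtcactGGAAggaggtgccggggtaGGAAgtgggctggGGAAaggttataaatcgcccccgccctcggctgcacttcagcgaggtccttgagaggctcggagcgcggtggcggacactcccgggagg
*Kdr* (chr5:75978406-75978705, minus strand): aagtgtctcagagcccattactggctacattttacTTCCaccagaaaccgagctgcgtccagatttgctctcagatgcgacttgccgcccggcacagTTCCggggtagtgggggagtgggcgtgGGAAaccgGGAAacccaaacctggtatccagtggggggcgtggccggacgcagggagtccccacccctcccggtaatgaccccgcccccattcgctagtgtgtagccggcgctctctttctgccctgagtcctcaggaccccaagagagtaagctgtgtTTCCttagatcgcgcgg
*Tek* (chr4:94739039-94739338, plus strand): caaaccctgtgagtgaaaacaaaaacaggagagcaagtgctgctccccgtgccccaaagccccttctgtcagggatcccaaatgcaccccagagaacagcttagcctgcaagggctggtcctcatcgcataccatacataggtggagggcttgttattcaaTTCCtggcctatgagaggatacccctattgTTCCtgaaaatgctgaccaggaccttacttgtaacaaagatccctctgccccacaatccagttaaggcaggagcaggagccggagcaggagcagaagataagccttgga
*Cldn5* (chr16:18776597-18776896, plus strand): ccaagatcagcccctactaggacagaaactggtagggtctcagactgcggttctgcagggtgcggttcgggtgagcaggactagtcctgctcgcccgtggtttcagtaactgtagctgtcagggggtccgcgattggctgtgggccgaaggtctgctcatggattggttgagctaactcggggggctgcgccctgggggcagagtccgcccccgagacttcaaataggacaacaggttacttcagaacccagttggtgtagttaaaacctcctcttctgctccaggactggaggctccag
The window of *Flt1* held 4 such matches, that of *Kdr* 5 and that of *Tek* 2, whereas that of *Cldn5* held none. Of the windows not shown, that of *Abcb1a* held 5, that of *Mfsd2a* 3, both of *Ocln* 2 each and that of *Slc2a1* none. Matches are common at this length, since 96.0% of 32851 promoters held GGAA on either strand. The longer word AGGAAG, found in 35.4% of promoters on either strand, was present in the window of *Flt1* and in none of the windows of *Kdr*, *Tek* and *Cldn5*. Of the windows not shown, that of *Abcb1a* held it. This *Abcb1a* window (chr5:8566841-8567140) lies wholly before the annotated gene, which starts at 8660077. *Flt1* also held TATAAA, as did *Slc2a1* and 13.6% of promoters. These are matches of letters, with no binding measured.

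The 10 genes were compared with each other per length, as CPM per kilobase of exon. The nutrient carriers stood at the top: *Slc2a1* had a median of 88.3 CPM per kb over the 18 samples and *Mfsd2a* 48.4. *Cldn5* followed at 23.2 CPM per kb, and the ranges of these 3 genes did not overlap each other or those of the genes below them. Between *Cldn5* and the next gene the median level fell to 4.23 CPM per kb. *Tek* (4.23), *Ocln* (3.84), *Pecam1* (3.79), *Abcb1a* (3.60) and *Flt1* (3.52) formed a middle group in which each gene's range overlapped that of its neighbour. *Kdr* was lower, at 2.10 CPM per kb, and lay below *Flt1* in 18 of 18 samples without overlap of the ranges. *Cdh5* was lowest, at 1.22 CPM per kb, and lay below *Kdr* in 18 of 18 samples although the ranges overlapped. The length used is that of all annotated exons together, 13504 bases for *Flt1* against 1416 for *Cldn5*, so a gene that uses few of its exons is understated.

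The genes also differed in how far they varied. Over the 18 samples the coefficient of variation of *Cldn5* was 23.3%, with a highest sample 2.46 times the lowest, which placed it at the 95.8th percentile of 13818 genes with mean levels of 4 to 400 CPM (median 9.94%). *Ocln*, its partner in the tight junction, varied by 7.70%, at the 26.4th percentile. *Abcb1a* varied by 16.2% and the other 7 genes by 9.33% to 13.8%. *Cldn5* is annotated as a single transcript of 1416 bases on chromosome 16 (GRCm38, 18776847 to 18778262), which is the shortest of the 10 and the richest in GC, at 60.5%.

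**Figure D1:**
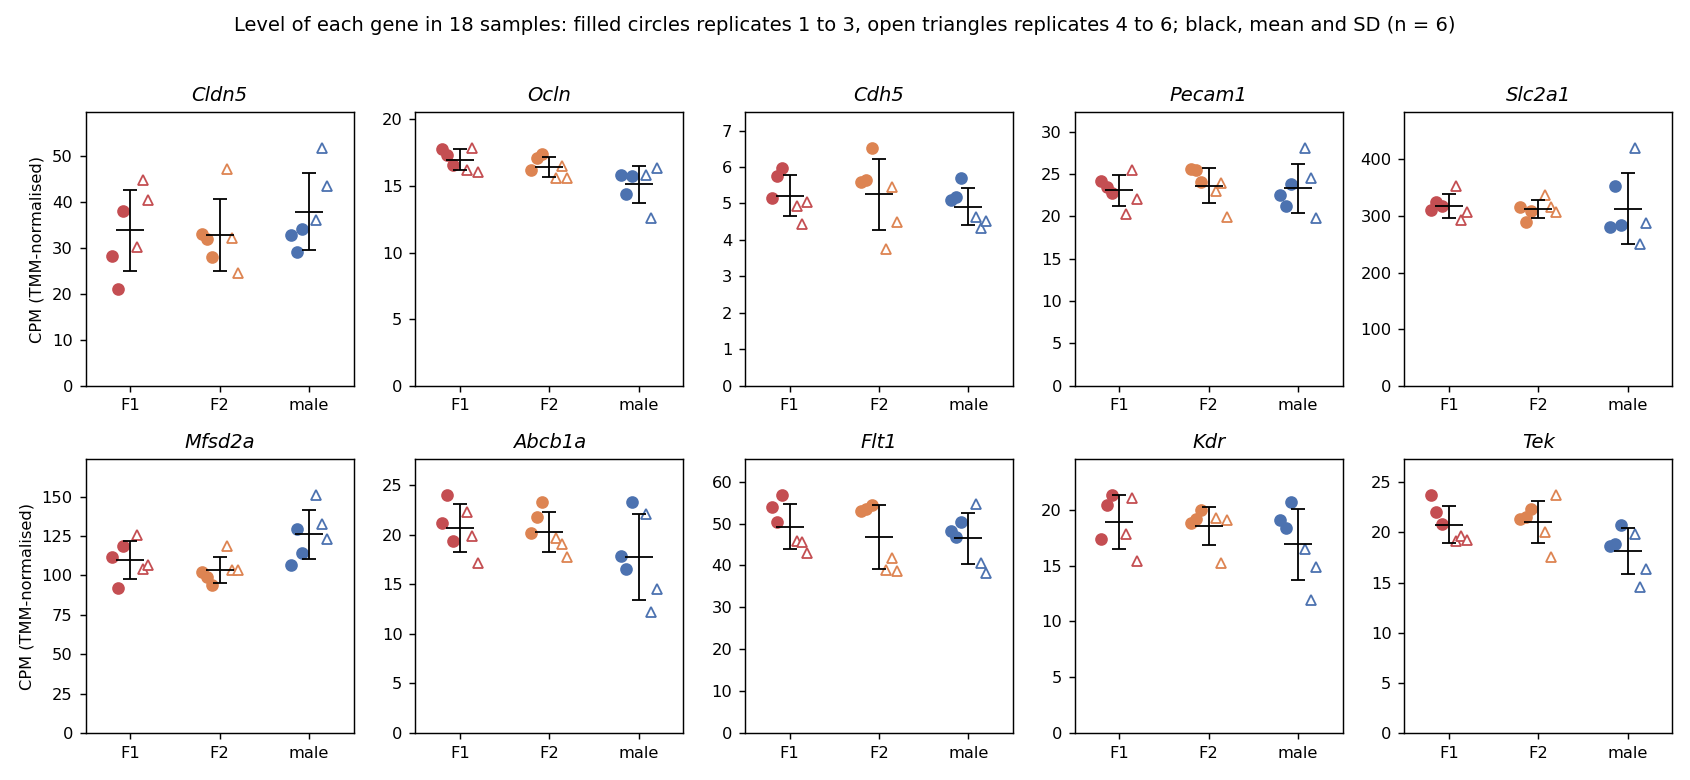
Levels of the 10 genes in CPM (vertical axes, from 0) in 6 F1/proestrus (F1), 6 F2/metestrus (F2) and 6 male samples, with replicates 1 to 3 as filled circles, replicates 4 to 6 as open triangles and the mean and SD in black. The female groups overlap in every gene, the males lie high for *Mfsd2a*, and the triangles lie low for *Cdh5* and *Flt1*.

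The first comparison asked whether the barrier genes differed between females with short and long interphases. None of the 10 genes was called different between F2/metestrus and F1/proestrus (edgeR quasi-likelihood test, FDR 5%). The background was 0 of 24042 genes called (0%). None of the 10 had an unadjusted p under 0.05, against 2.48% of all genes (596). DESeq2 called 2 genes and voom 0, none of them among the 10. The log2 fold changes lay between -0.09 for *Mfsd2a* and 0.03 for *Pecam1*. Their median was -0.03 over the 10 genes, and that of all genes tested was -0.00038. On simulated data, this comparison recovered 11.8% of changed genes from 4 CPM where their median log2 fold change was 0.336. It recovered 83.5% where that median was 0.58. Most changes of the smaller size would therefore be missed, and the absence of calls does not exclude them.

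Among the junction genes, *Cldn5* had a lowest, median and highest level of 21.0, 34.1 and 44.7 CPM in F1/proestrus and of 24.5, 32.0 and 47.2 CPM in F2/metestrus. The groups overlapped almost entirely and the spread within each was wide. The 95% interval of the log2 fold change (F2/metestrus over F1/proestrus) ran from -0.42 to 0.33, the widest of the 10. Differences within it are not excluded, and its ends are not limits of detection. *Ocln* was at 16.1, 16.9 and 17.9 CPM in F1/proestrus as compared to 15.6, 16.4 and 17.4 CPM in F2/metestrus, with a fold of 0.965 (interval 0.887 to 1.05). *Cdh5* was at 4.43, 5.10 and 5.97 CPM in F1/proestrus and at 3.76, 5.52 and 6.52 CPM in F2/metestrus, where the F2/metestrus samples held both the lowest and the highest value. *Pecam1* was at 20.3, 23.1 and 25.5 CPM in F1/proestrus and at 19.9, 24.0 and 25.6 CPM in F2/metestrus, again with overlapping groups.

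The transporter genes also overlapped between the female groups. *Slc2a1* had 292.5, 313.8 and 353.3 CPM as lowest, median and highest level in F1/proestrus and 289.6, 312.2 and 336.1 CPM in F2/metestrus. Its fold of 0.982 had the interval 0.910 to 1.06. *Mfsd2a* was at 91.9, 109 and 125.8 CPM in F1/proestrus and at 94.2, 102.6 and 118.4 CPM in F2/metestrus, with a fold of 0.940 (interval 0.845 to 1.05) and with 5 of 6 F2/metestrus samples below the F1/proestrus median. *Abcb1a* was at 17.1, 20.5 and 24.0 CPM in F1/proestrus and at 17.7, 19.9 and 23.3 CPM in F2/metestrus, and no sample of the second group left the range of the first.

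The receptors gave the same picture. *Flt1* was at 43.1, 48.1 and 56.8 CPM in F1/proestrus and at 38.7, 47.4 and 54.4 CPM in F2/metestrus, where replicates 4 to 6 lay below every F1/proestrus sample and replicates 1 to 3 lay inside their range. *Kdr* was at 15.4, 19.2 and 21.3 CPM in F1/proestrus and at 15.2, 19.1 and 20.0 CPM in F2/metestrus. *Tek* was at 19.2, 20.2 and 23.7 CPM in F1/proestrus and at 17.6, 21.4 and 23.7 CPM in F2/metestrus. The medians of both genes differed by less than the spread within either group, and the adjusted p of edgeR's test was 1 for all 10 genes. Lists of related genes gave no call either: 0 of 24 further endothelial identity genes, 0 of 15 junction genes, 0 of 17 barrier transporters, 0 of 17 VEGF and angiopoietin partners, 0 of 19 Wnt and norrin genes and 0 of 15 pericyte genes passed (edgeR, FDR 5%). At an unadjusted p under 0.05 these lists held 0, 0, 0, 3, 0 and 0 genes, against 2.48% of all genes, and no list was tested against that share.

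The second comparison set the 6 males against all 12 females. Again none of the 10 genes passed an FDR of 5%, where 0.197% of all genes did (49 of 24862, with 0.149% of all genes higher in males and 0.0483% lower), and leaving out any 1 sample gave no call among them. At an unadjusted p under 0.05 stood 3 of the 10, against 9.72% of all genes: *Mfsd2a* at a higher level in males, and *Ocln* and *Tek* at a lower level. With the library series as covariate 0.539% of all genes were called, and in the second series alone 0.0531%, with none of the 10 in either fit. At an unadjusted p under 0.05 stood 4 of the 10 with that covariate, against 16.4% of all genes. The median log2 fold change was -0.07 over the 10 genes and -0.0013 over all genes tested.

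*Mfsd2a*, the lysophospholipid carrier, was at 91.9, 103.7 and 125.8 CPM (lowest, median and highest) in the 12 females and at 106.4, 126.4 and 151 CPM in the 6 males. All 6 males lay above the female median and 3 above every female, so the groups overlapped in part. Its log2 fold change was 0.24, a fold of 1.18 (95% interval 1.07 to 1.31, unadjusted p = 0.00258, adjusted p = 0.252 in edgeR's test). The exact permutation test, two-sided over 18564 splits, gave p = 0.00609 for this gene alone. The log2 fold change was 0.17 in the first and 0.30 in the second library series alone, and the difference of the sex effect between the series was 0.12 ± 0.13 on the log2 scale (SE, edgeR adjusted p = 0.967). Values of the other carriers lay in both directions. *Slc2a1* was at 289.6, 312.6 and 353.3 CPM in females and at 250.2, 286.1 and 420.1 CPM in males, where 4 males lay below and 1 above every female, and the fold was 0.993 (interval 0.887 to 1.11). *Abcb1a* was at 17.1, 20.0 and 24.0 CPM in females and at 12.2, 17.2 and 23.3 CPM in males, with a log2 fold change of -0.20 (adjusted p = 0.542). About 17.0% of the 50-base windows of *Abcb1a* also occur in *Abcb1b* or *Abcb4*, so part of its reads could not be placed uniquely.

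*Ocln* was at 15.6, 16.5 and 17.9 CPM in females and at 12.6, 15.8 and 16.3 CPM in males. All 6 males lay below the female median and 2 below every female. The log2 fold change was -0.14 (fold 0.906, interval 0.838 to 0.980, unadjusted p = 0.0166, adjusted p = 0.395 in edgeR's test, exact permutation p = 0.00415), and it was -0.17 and -0.12 in the first and second series alone. After correction for GC content and transcript length, chosen after seeing the data, it was -0.07, with an unadjusted p of 0.206 in edgeR's test, as compared to 0.19 for *Mfsd2a* and -0.17 for *Tek*. *Cldn5* was at 21.0, 32.0 and 47.2 CPM in females and at 29.0, 35.1 and 51.7 CPM in males, with a fold of 1.14 and the interval 0.920 to 1.41. The other junction genes lay within the female range in most males, with folds of 0.939 for *Cdh5* (interval 0.816 to 1.08) and 0.999 for *Pecam1* (interval 0.904 to 1.10).

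Among the receptors, *Tek* was at 17.6, 21.1 and 23.7 CPM in females and at 14.6, 18.7 and 20.8 CPM in males. All 6 males lay below the female median, 2 of them below every female. Its log2 fold change was -0.20 (fold 0.868, interval 0.780 to 0.966, unadjusted p = 0.0117, adjusted p = 0.370 in edgeR's test, exact permutation p = 0.0128), with -0.19 and -0.23 in the first and second series alone. *Kdr* was at 15.2, 19.1 and 21.3 CPM in females and at 12.0, 17.4 and 20.8 CPM in males, a fold of 0.903 with the interval 0.786 to 1.04. *Flt1* was at 38.7, 48.1 and 56.8 CPM in females and at 38.1, 47.5 and 54.7 CPM in males, and the groups overlapped throughout (fold 0.968, interval 0.850 to 1.10). Male replicates 4 and 5 stood at opposite ends: replicate 4 had the highest male level of *Slc2a1*, *Mfsd2a*, *Pecam1* and *Flt1*, and replicate 5 the lowest of *Slc2a1*, *Abcb1a*, *Ocln*, *Kdr*, *Tek* and *Cdh5* together with the highest *Cldn5*, 51.7 CPM. Genes of red blood cells summed to 370.5 CPM in male replicate 4, the highest of the 18 samples. In male replicate 5, Schwann cell genes summed to 5512 CPM and dorsal horn neuron genes to 1025 CPM, each the highest of the 18 samples. Genes of sensory ganglion neurons summed there to 11.01 CPM and motor neuron genes to 22.9 CPM, each the lowest. The part of these sums in the levels was not tested.

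**Figure D2:**
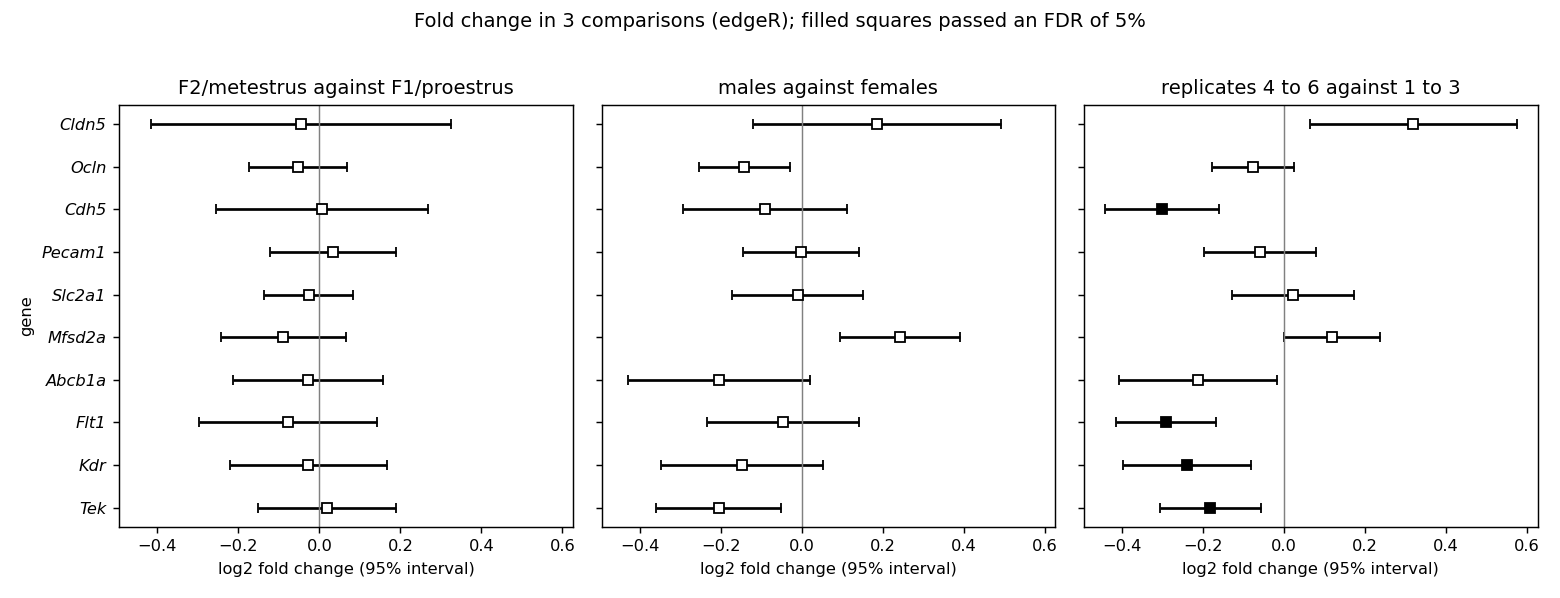
Log2 fold change (horizontal axis, with its 95% interval) of the 10 genes (vertical axis) in the 3 comparisons, from edgeR, where filled squares passed an FDR of 5%. No square is filled for F2/metestrus against F1/proestrus or for males against females, and 4 are filled, all to the left of 0, for replicates 4 to 6 against 1 to 3.

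Ratios within the families were tested as well, over 6 tests. The VEGF receptor ratio *Flt1* to *Kdr*, on the log2 scale of CPM, was 1.38 ± 0.18 in F1/proestrus, 1.32 ± 0.23 in F2/metestrus (SD, n = 6 each, exact permutation p = 0.610) and 1.47 ± 0.22 in males as compared to 1.35 ± 0.20 in females (exact permutation p = 0.262). The tight junction ratio *Cldn5* to *Ocln* was 1.30 ± 0.39 in males and 0.96 ± 0.36 in females (exact permutation p = 0.0841, adjusted 0.351). The ratio of the P-glycoprotein genes *Abcb1a* to *Abcb1b* was 2.35 ± 0.36 in males and 2.57 ± 0.20 in females (exact permutation p = 0.117, adjusted 0.351), and 2.53 ± 0.25 in F1/proestrus against 2.62 ± 0.16 in F2/metestrus (exact permutation p = 0.472). None of the 6 passed. Without F2/metestrus replicate 4 the sex difference of *Cldn5* to *Ocln* was 0.40 (exact permutation p = 0.0314), and without male replicate 3 that of *Abcb1a* to *Abcb1b* was -0.34 (exact permutation p = 0.00937), both unadjusted.

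Around the 10 genes, a pair of related genes differed between the sexes. *Angptl4*, a secreted angiopoietin-like protein and inhibitor of lipoprotein lipase, was at 8.04, 12.6 and 17.9 CPM in females and at 18.2, 23.0 and 30.9 CPM in males, with every male above every female. The fold was 1.86 (interval 1.54 to 2.25, adjusted p = 0.00159 in edgeR's test), and it was the single gene of 17 VEGF and angiopoietin partners that passed. *Slco1c1*, the thyroid hormone transporter of the brain endothelium, was at 47.9, 50.4 and 56.4 CPM in females and at 32.6, 40.7 and 46.6 CPM in males, with every male below every female. Groups without overlap occurred in 0.125% of all genes. Its log2 fold change was -0.31 (fold 0.804, interval 0.737 to 0.877, adjusted p = 0.0250 in edgeR's test), and it was the single gene of 17 barrier transporters that passed. The call of *Slco1c1* was lost without F1/proestrus replicate 4, F2/metestrus replicate 1 or male replicate 3, 4 or 5 (edgeR adjusted p up to 0.100, log2 fold change -0.34 to -0.30), and with a correction for GC content (adjusted p = 0.0710, log2 fold change -0.28), while that of *Angptl4* was kept in each of these fits. Neither passed within 1 library series alone, where *Angptl4* had log2 fold changes of 0.85 and 0.93 and *Slco1c1* of -0.36 and -0.28. Over 17 alternative fits, which hold the GC correction and the single series, the call of *Slco1c1* was lost in 5 and that of *Angptl4* in 2.

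The further lists held no call between the sexes: 0 of 24 endothelial identity genes, 0 of 15 junction genes, 0 of 19 Wnt and norrin genes, 0 of 10 caveolae genes, 0 of 15 pericyte genes, 0 of 9 smooth muscle genes and 0 of 11 basement membrane genes (edgeR, FDR 5%). At an unadjusted p under 0.05 the same lists held 7, 3, 1, 1, 3, 4 and 2 genes, against 9.72% of all genes. No list was tested against that share. Summed levels of the endothelial identity genes were 565 to 632 CPM in F1/proestrus, 569 to 618.5 CPM in F2/metestrus and 521 to 660 CPM in males, with overlap of all 3 groups. Markers of other cells were counted as well, where 0.197% of all genes were called between the sexes and 0.149% were higher in males (edgeR, FDR 5%). Of 9 Schwann cell genes 1 was higher in males (edgeR, FDR 5%) and 9 of 9 had a positive log2 fold change, and of 10 dorsal horn neuron genes 2 were higher and 10 of 10 positive, while 0 of 6 motor neuron genes passed or were positive (median log2 fold change -0.59). Schwann cell genes summed to 2550 to 5512 CPM in males and to 1891 to 3294 CPM in females, and dorsal horn neuron genes to 702.5 to 1025 CPM in males as compared to 516 to 823 CPM in females, with overlap in both lists. Motor neuron genes summed to 22.9 to 165.5 CPM in males and to 33.0 to 321.6 CPM in females. The female maximum was F1/proestrus replicate 5, where *Prph*, also on the list of sensory ganglion neurons, had 203.1 CPM. The next highest female sum was 190.8 CPM, in F1/proestrus replicate 3. All 8 tested neutrophil genes had a higher level in males, 1 of them past the threshold, from sums of only 2.06 to 32.6 CPM. Their part in the values of *Mfsd2a*, *Ocln*, *Tek*, *Angptl4* and *Slco1c1* was not tested.

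The largest differences among the 10 genes followed the library series. In replicates 4 to 6 as compared to 1 to 3, with the group as a covariate, 4 of the 10 genes were lower and none was higher (edgeR, FDR 5%), where 27.6% of all genes were called (6637 of 24038), 15.2% lower and 12.4% higher. At an unadjusted p under 0.05 stood 6 of the 10, against 38.2% of all genes, and none of the 10 had series without overlap, found in 4.22% of all genes. The 4 were *Cdh5* and all 3 receptor genes. The median log2 fold change was -0.13 over the 10 genes and -0.01 over all genes tested.

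*Flt1* was at 46.7, 53.1 and 56.8 CPM (lowest, median and highest) in the 9 samples of replicates 1 to 3 and at 38.1, 41.8 and 54.7 CPM in the 9 of replicates 4 to 6. Of the latter, 8 of 9 lay below every one of the former, and male replicate 4 was the exception. The log2 fold change was -0.29 ± 0.06 (SE, adjusted p = 0.000995 in edgeR's test). *Cdh5* was at 5.11, 5.65 and 6.52 CPM in replicates 1 to 3 and at 3.76, 4.51 and 5.46 CPM in replicates 4 to 6, with 8 of 9 of the latter below every one of the former. Its log2 fold change was -0.30 ± 0.07 (SE, adjusted p = 0.00230 in edgeR's test). Both calls were kept when any 1 sample was left out. *Kdr* was at 17.4, 19.2 and 21.3 CPM in replicates 1 to 3 and at 12.0, 16.5 and 21.1 CPM in replicates 4 to 6 (log2 fold change -0.24 ± 0.08 (SE), edgeR adjusted p = 0.0231). *Tek* was at 18.6, 21.3 and 23.7 CPM in replicates 1 to 3 and at 14.6, 19.3 and 23.7 CPM in replicates 4 to 6 (log2 fold change -0.18 ± 0.06 (SE), edgeR adjusted p = 0.0277). These ranges overlapped widely. The *Kdr* call was lost on leaving out any 1 of F1/proestrus replicates 2, 3 and 6, F2/metestrus replicate 5 and male replicates 1, 2, 3, 5 and 6 (edgeR adjusted p up to 0.0792). That of *Tek* was lost without any 1 of F1/proestrus replicates 1, 2, 5 and 6, F2/metestrus replicates 2, 4 and 5 and male replicates 1, 2, 3, 5 and 6 (edgeR adjusted p up to 0.106).

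The other 6 genes did not pass. *Cldn5* was at 21.0, 31.9 and 38.0 CPM in replicates 1 to 3 and at 24.5, 40.4 and 51.7 CPM in replicates 4 to 6, with 5 of 9 of the latter above every one of the former (log2 fold change 0.32, edgeR adjusted p = 0.0589). It passed when F1/proestrus replicate 3 or 4, F2/metestrus replicate 5 or 6 or male replicate 4 was left out, with a log2 fold change of up to 0.41. *Abcb1a* had a log2 fold change of -0.21 (adjusted p = 0.0978) and *Mfsd2a* of 0.12 (adjusted p = 0.133) in the same test, and *Abcb1a* passed without male replicate 4 (adjusted p = 0.0138) and *Mfsd2a* without F1/proestrus replicate 3 (adjusted p = 0.0408). *Ocln*, *Pecam1* and *Slc2a1* had log2 fold changes of -0.08, -0.06 and 0.02 in that order. Within single groups, with 3 samples against 3, edgeR called 0 of the 10 genes in F1/proestrus, 1 in F2/metestrus and 0 in males, where 0.314%, 3.23% and 4.90% of all genes were called.

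Transcript length and base composition moved with the series across all genes. Of 3717 genes whose longest transcript exceeded 5 kb, 52.0% were lower and 2.31% higher in replicates 4 to 6, whereas of 4686 genes of 1 to 2 kb, 6.27% were lower and 21.7% higher. Across 24027 genes, which are not independent replicates, the log2 fold change had a Spearman correlation of -0.304 with length and 0.302 with GC content. Among the 10 genes, the 4 longest, *Flt1* (6895 bases), *Kdr* (5924), *Abcb1a* (4997) and *Tek* (4654), had log2 fold changes from -0.29 to -0.18, and the 2 shortest, *Cldn5* (1416) and *Mfsd2a* (2151), had the highest values. *Cdh5*, of 3995 bases, was at -0.30, where the median of 3816 genes of 3 to 4 kb was -0.01. With a correction for GC content alone, which called 28% of all genes, 3 of the 10 passed, all but *Tek* of the 4. With a correction for GC content and then length, both added after seeing the data, *Cdh5* remained called (log2 fold change -0.29, edgeR adjusted p = 0.00574), while *Flt1* was at -0.11 (adjusted p = 0.245), *Kdr* at -0.08 (adjusted p = 0.437) and *Tek* at -0.07 (adjusted p = 0.413). The corrected fit called 21.6% of all genes. Females of both groups and males each held 3 samples of either series, and for males against females the log2 fold change across genes had correlations of -0.206 with length and 0.315 with GC content, as compared to 0.0083 and 0.0077 for F2/metestrus against F1/proestrus.

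**Figure D3:**
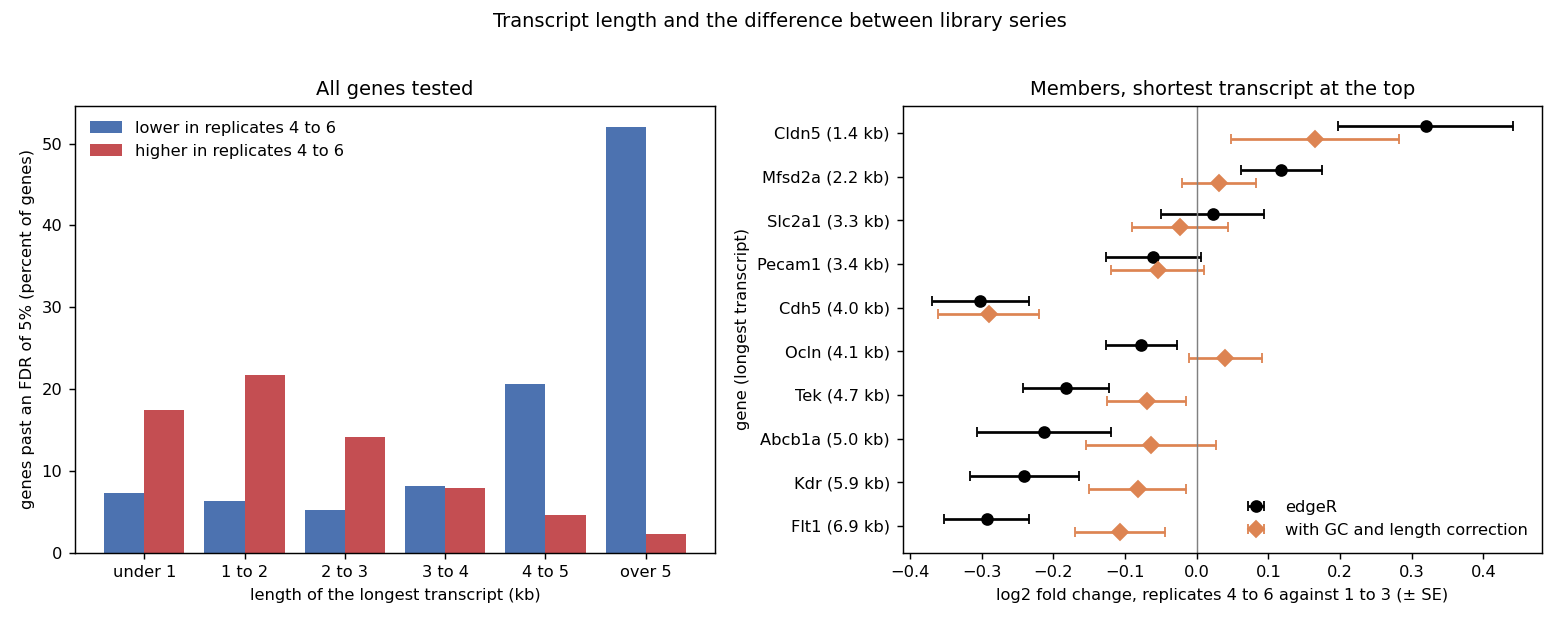
Left, the percent of all tested genes past an FDR of 5% in replicates 4 to 6 against 1 to 3 (vertical axis) by length of the longest transcript in kb (horizontal axis), lower in blue and higher in red. Right, the log2 fold change ± SE of the 10 genes, ordered from the shortest transcript at the top, from edgeR (black circles) and with a correction for GC content and length (orange diamonds), where *Cdh5* stays near -0.29 and *Flt1*, *Kdr* and *Tek* lie closer to 0.

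Related genes went in both directions between the series, and named values here are log2 fold changes from edgeR at an FDR of 5%. The counts of each list stand against 15.2% of all genes lower and 12.4% higher, and no list was tested against that share. Of 24 endothelial identity genes, 4 were higher, such as the secreted factor *Egfl7* (0.22), the transcription factor *Sox18* (0.25) and the receptor partner *Ramp2* (0.20), and 3 lower, such as *Cd93* (-0.55) and the sialomucin *Podxl* (-0.36). Of the 15 genes on the junction list 5 were lower, led by *Tjp1* (-0.51), which encodes the scaffold ZO-1, and 2 higher. Among the higher was *Plvap* (0.31), a component of fenestrae rather than of junctions, which is also on the caveolae list. Of 17 barrier transporters 4 were lower and 1 higher, and of 19 Wnt and norrin genes 5 were lower, including the norrin receptor *Fzd4* (-0.38) and its partner *Lrp6* (-0.45), and 1 higher, the ligand *Wnt7a* (0.25). Of 15 pericyte genes 4 were lower, including *Notch3* (-0.67) and *Pdgfrb* (-0.30), and of 11 basement membrane genes 5 were lower, led by the laminin gene *Lama5* (-0.88), with none higher in either list. Of 17 VEGF and angiopoietin partners 2 were lower and 2 higher, among them the ligand *Vegfb* (0.36). After the correction for GC content and length, *Notch3* (-0.53), *Pdgfrb* (-0.24), *Lama5* (-0.68), *Tjp1* (-0.27), *Cd93* (-0.33), *Podxl* (-0.27), *Lrp6* (-0.14) and *Vegfb* (0.20) still passed, and *Egfl7*, *Sox18*, *Ramp2*, *Plvap*, *Fzd4* and *Wnt7a* did not. The sums of the endothelial identity genes overlapped, at 521 to 613 CPM in replicates 1 to 3 and 563.5 to 660 CPM in replicates 4 to 6.

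The 10 genes did not move as a single block over the 18 samples. Of their 45 pairs, 31 had a positive Pearson correlation of log2 CPM, with a median r of 0.21, and 8 passed a permutation test adjusted over the 45 pairs, 7 positive and 1 negative. The points share libraries, and with the means of group and series removed the median r was 0.199. Of the 6 pairs among *Abcb1a*, *Tek*, *Kdr* and *Ocln*, 5 passed: r was 0.75 for *Abcb1a* with *Tek*, 0.74 for *Tek* with *Kdr*, 0.72 for *Abcb1a* with *Kdr*, 0.71 for *Ocln* with *Abcb1a* and 0.64 for *Ocln* with *Tek*. *Ocln* with *Kdr* did not pass (r = 0.59, permutation p adjusted = 0.055). Spearman's rho of the 5 pairs was lower, at 0.60, 0.53, 0.53, 0.45 and 0.42 in the same order. The 2 pairs with *Ocln* had an unadjusted p of 0.06 and 0.084 in the permutation test of rho. Without the 2 samples farthest from the median of the first gene, r of the 5 pairs was 0.38, 0.40, 0.31, 0.31 and 0.28. Much of the size of r therefore rested on those samples. With the means of group and series removed it was 0.585, 0.563, 0.57, 0.57 and 0.40. *Tek* with *Kdr* had r = -0.087 in the first library series and 0.82 in the second, whereas *Abcb1a* with *Tek* had 0.75 and 0.67. The remaining positive pairs that passed were *Cdh5* with *Flt1* and *Abcb1a* with *Flt1*. *Cdh5* with *Flt1* (r = 0.72, Spearman's rho = 0.71, permutation p adjusted = 0.011) kept r = 0.65 without the 2 farthest samples but had 0.27 with the means of group and series removed, and 0.60 and 0.28 within the first and second series. *Abcb1a* with *Flt1* (r = 0.64, rho = 0.62, permutation p adjusted = 0.021) had 0.53 without the 2 farthest samples, 0.69 with the means removed, and 0.44 and 0.60 within the series. *Cldn5* ran against *Tek* (r = -0.67, rho = -0.57, permutation p adjusted = 0.017, r = -0.53 without the 2 farthest samples, -0.35 and -0.65 within the series). For *Mfsd2a*, r was 0.48 with *Cldn5* and 0.38 with *Slc2a1* and lay between -0.57 and 0.0043 with the others. No pair with it passed. With the means of group and series removed, its r was 0.605 with *Slc2a1*, 0.49 with *Flt1* and 0.20 with *Cldn5*. It was then also positive with *Abcb1a* (0.155), *Tek* (0.124), *Pecam1* (0.115) and *Kdr* (0.082), and negative with *Ocln* (-0.29) and *Cdh5* (-0.20).

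**Figure D4:**
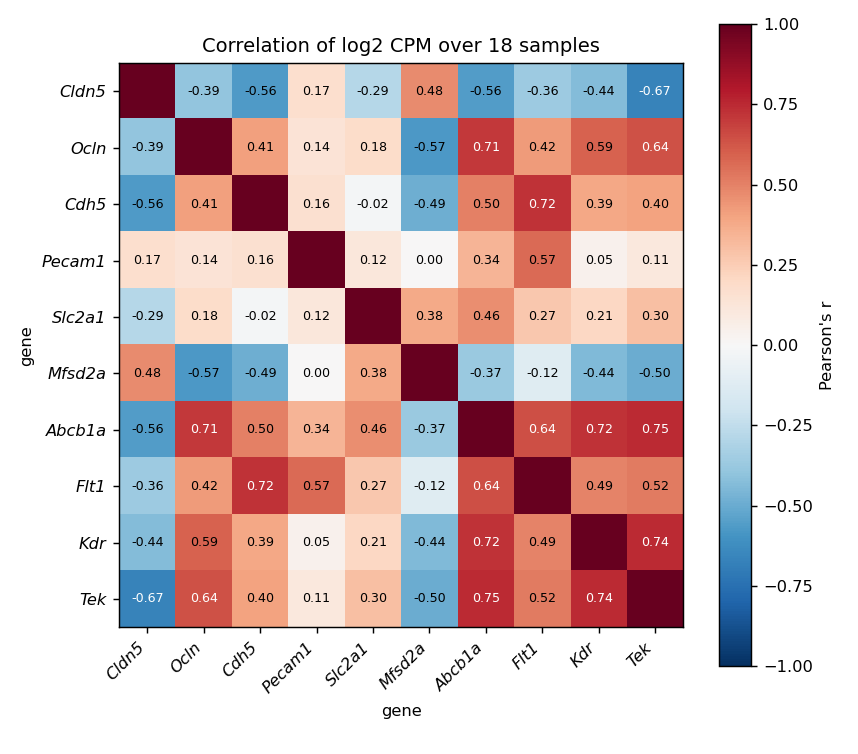
Pearson's r between the log2 CPM of each pair of the 10 genes (both axes) over 18 samples, from -1 in blue to 1 in red, printed in each cell. *Abcb1a*, *Tek*, *Kdr* and *Ocln* are red against each other, and *Cldn5* and *Mfsd2a* are blue against most of the others.

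Among 17753 genes with a mean of at least 1 CPM, the gene whose log2 CPM was most like the mean of the 10 over the 18 samples was *Abcc4*, an efflux transporter and itself one of the 17 barrier transporters (r = 0.92, and 0.94 with the means of group and series removed, 22.1 CPM on average). *Txlna* (r = 0.85), *Gm15477* (0.83), *A130051J06Rik* (0.83), *Msh6* (0.83) and *Gm42686* (0.82) followed. *Gm42686* lies on the opposite strand within *Abcb1a*, and whether reads were counted by strand is not stated, so its counts and those of *Abcb1a* may overlap. Annotated antisense genes also overlap *Cdh5* (*Gm29682*) and *Slc2a1* (*Gm12867* and *Gm12868*), and the same limit holds for the counts of these 2 genes. The mean of the centred log2 CPM of the 10 genes was lowest in male replicate 5 (-0.19), male replicate 6 (-0.13) and F2/metestrus replicate 6 (-0.11) and highest in male replicate 4 (0.14) and F1/proestrus replicate 3 (0.11).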

How the data were processed

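RNA of the ipsilateral DHSC was sequenced in 18 samples. The authors deposited raw counts per gene, from reads mapped uniquely to mm10 with Subread (2.0.3 per the labels) and counted on exons with featureCounts, with no normalization. Use of strand is not stated. The methods name a TruSeq kit, whereas the labels describe full-length cDNA amplification and transposon tagmentation. A second deposited table holds the authors' own DESeq2 comparison, and only its gene symbols were used.

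Counts were filtered (filterByExpr, minimum count 10, minimum total 15), scaled by TMM and fitted with edgeR 4.0.16 (quasi-likelihood test, R 4.3.3), and p-values were adjusted by Benjamini-Hochberg over all genes (FDR 5%). F2/metestrus was compared with F1/proestrus over 12 females, males with 12 females, and replicates 4 to 6 with 1 to 3 with the group as covariate. Total counts of 73590509 to 125724156 per sample put all 10 genes well above the filter. Single genes and ratios were also tested with exact permutation tests, and correlations with 100000 permutations. Alternatives were DESeq2 1.42.0, limma voom 3.58.1 with quality weights, other size factors and filters, score covariates, single series and leaving out each sample. Corrections for GC content alone and with transcript length (lowess, span 0.3) were added after seeing the data. The main fits were tested on simulated data. At the smaller simulated size, 11.8% of changed genes from 4 CPM were recovered between the female groups. The share was 47% between the sexes and 64.3% between the library series.

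Positions come from GENCODE vM21 (GRCm38), which held 55480 of the gene IDs. The 10 genes and all lists were chosen with earlier results of these data known. All 10 genes are named. From the related lists, named genes were chosen among at most 6 per list and comparison with the smallest p past the threshold. The 6 genes most like the mean of the 10 are named by Pearson correlation.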

Additional observations from a re-analysis of the deposited data

Results flagged for a closer look

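*Kdr* in F2/metestrus was flagged because 1 sample lay far from the rest of its group. Replicate 5 had 15.2 CPM, as compared to 18.8 to 20.0 CPM in the other 5 samples, and on the scale of log2 CPM its gap to the nearest sample was 0.787 of the range of the group, above Dixon's 95% critical value of 0.625 for 6 samples. It was the single flag among 39 groups examined, where chance flags about 1 in 20.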

How the results depend on the processing

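Between F2/metestrus and F1/proestrus, DESeq2 called 2 genes in place of 0, and leaving out 1 sample gave 0 to 0. The count between the sexes, 49 genes, was 160 with DESeq2, 31 with at least 10 counts in every sample, 134 with the library series as covariate, 16 and 13 in the first and second series alone, 23 against F1/proestrus and 32 against F2/metestrus alone, and 25 to 77 on leaving out 1 sample, with 77 without F1/proestrus replicate 5, 30 without male replicate 4 and 25 without male replicate 5. No alternative called any of the 10 genes in these 2 comparisons (0 to 0 on leaving out 1 sample), and 239 of 270 and 332 of 350 log2 fold changes of the 10 genes kept their direction.

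Same-numbered samples share the library series, and they correlated at -0.105 to 0.228 in their deviations from the group means. With the means of group and series removed, r was -0.111 to 0.132, and nothing in the labels pairs these samples. With the replicate number as a block, edgeR called 0 genes between the female groups and 148 between the sexes (105 with GC correction as well), none of them among the 10.

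Between the library series, the counts of genes were 77 in F1/proestrus, 781 in F2/metestrus and 1198 in males alone and 5832 to 6913 on leaving out 1 sample. Of the 10 genes, 0, 1 and 0 were called in F1/proestrus, F2/metestrus and males alone, 1 with the correction for GC content and length, and 2 to 6 on leaving out 1 sample. That correction also reversed related genes, *Insr* (log2 fold change 0.11), *Itga1* (0.027) and the astrocyte transporter *Slc1a2* (0.17). It was chosen after seeing the data, and the cause of the lost calls was not tested. Each of the 10 genes had at least 342 counts in every sample, and the part of counting error in the width of the intervals was not tested.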
